A study of Homo sapiens with 4 samples.

Results

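The genes of glycolysis, gluconeogenesis and glucose transport were followed in 2 human hepatocellular carcinoma cell lines, Huh1 and Huh7, by RNA sequencing. They comprise 34 genes chosen by symbol from their textbook roles, with earlier results of these data known, of 18398 listed transcripts. They are glucose and lactate transporters, the glycolytic enzymes, the enzymes that set fructose 2,6-bisphosphate, the lactate dehydrogenases and the enzymes particular to gluconeogenesis. All 34 were listed, with the M-type pyruvate kinase gene under its older symbol PKM2, and 31 reached at least 1 RPKM (reads per kilobase of transcript, scaled to the reads of the library) in some library. Each line received either a negative control (NC) siRNA or an siRNA against ODC1, which encodes ornithine decarboxylase, the first enzyme of polyamine synthesis. No dose, time after transfection or culture condition is stated, and control and ODC1 groups alike were transfected. There was 1 library for each line with each siRNA, so a difference within a line has no replicate, and each line is a single model of the tumour.

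Glycolysis splits glucose into pyruvate and yields ATP without oxygen. Lactate dehydrogenase turns pyruvate into lactate, and monocarboxylate transporters carry lactate out of the cell. Hepatocytes also run the route backwards, making glucose from lactate and amino acids through enzymes that bypass the irreversible steps, and they use isozymes such as the liver-type pyruvate kinase that many tumours replace. Polyamines are small cations made from ornithine and bind nucleic acids.

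Library depth was recovered from the most frequent product of RPKM and transcript length among low values, taken as 1 read. It was between 10215332 and 13384836 reads, at which 1 read on a transcript of 2 kb was worth 0.0374 to 0.0489 RPKM. ODC1 itself stood at 103 RPKM with control and 25.01 RPKM with ODC1 siRNA in Huh1, against 167 and 7.5 RPKM in Huh7, so 24.2% and 4.49% of the control level were left. Of the 11 markers of hepatocytes and hepatocellular carcinoma, all were present, with ALB between 920 and 3447 RPKM and AFP at 24.8 and 23.8 RPKM in Huh1 against 865 and 687 RPKM in Huh7. The summed level of 5 fibroblast markers was 12.1 and 15.7 RPKM in Huh1 against 283 and 370.0 RPKM in Huh7, while DCN stayed at or below 0.731 RPKM. Blood cell markers summed to between 14.9 and 26.4 RPKM, nearly all from CD68 and LYZ, with HBB at 0 and PTPRC at or below 0.147 RPKM. The endothelial markers CDH5, VWF and KDR did not exceed 0.0247 RPKM, and CDH5 was at 0. A lower level can reflect fewer cells that express a gene or less RNA per cell, which cannot be told apart here.

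Taken over all 34 genes, the summed level went from 9365 RPKM with control to 8856 RPKM with ODC1 siRNA in Huh1, which is 94.6% of control. In Huh7 it went from 10794 to 7900 RPKM, which is 73.2% of control. The genes held 2.02% and 1.92% of all summed RPKM in the Huh1 libraries and 2.55% and 1.87% in the Huh7 libraries. The Huh7 control library was therefore the highest of the 4 and the Huh7 ODC1 library the lowest. Changes were computed as log2(RPKM + 1) with ODC1 siRNA minus control, a scale that understates changes of genes near or below 1 RPKM. The median change of the 31 genes above the minimum was -0.06 in Huh1 and -0.33 in Huh7, beside 0.02 and -0.00 over all 12039 genes tested. Of the 31 genes, 19 (61.3%) were lower with ODC1 siRNA in both lines, against 30% of all genes tested, and 23 (74.2%) had the lower change in Huh7, against 53.3% of all. Both lines were measured with 1 library per siRNA, so the difference between them was not tested. Since earlier results were known when the genes were chosen, the figures beside all genes describe the set and do not test it.

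**Figure D1:**
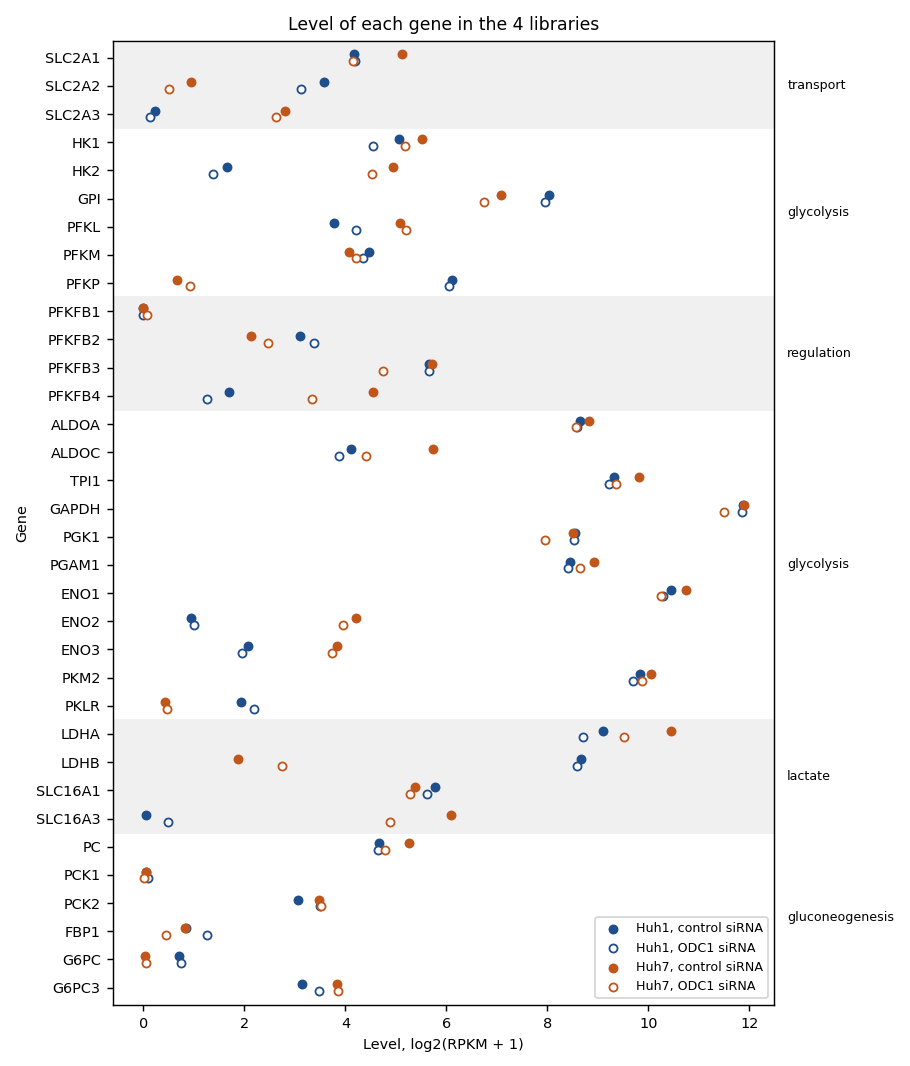
Level of each of the 34 genes in the 4 libraries, in log2(RPKM + 1), ordered by step. Blue marks Huh1 and orange Huh7, filled points are control and open points ODC1 siRNA, and each point is 1 library. LDHB and PFKP stand far to the right in Huh1, SLC16A3, HK2 and ENO2 in Huh7.

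A limma fit over the 4 libraries, with line and siRNA as terms, took the lines as repeats of the siRNA comparison. At a Benjamini-Hochberg adjusted p of 0.05 over all genes, 2 of the 31 genes fell, LDHA and HK1, beside 0.615% of all genes tested. None rose, and 2.12% of all genes were called in either direction. At an unadjusted p of 0.05, 15 of the 31 were lower and 2 were higher, beside 8.25% and 10.7% of all genes tested. Both calls were lost in 6 of 8 other settings, while the direction stayed the same in all 8. The p-values measure only how these 4 libraries scatter, since no label names separate cultures. They and the standard errors (SE) given below use a variance moderated with that of other genes, not the gene's own spread alone. By size within a line on the log2(RPKM + 1) scale, none of the 29 genes that reached 1 RPKM in Huh1 was at least 2-fold lower or higher, where 0.0275% and 0.0550% of all genes were. In Huh7, 3 of 27 genes were at least 2-fold lower, SLC16A3, PFKFB4 and ALDOC, beside 0.429% of all genes, and none was at least 2-fold higher, beside 0.342%. In RPKM itself, SLC2A1 at 49.5% and LDHB at 214% of control in Huh7 also lay past 2-fold, and with a pseudocount of 0.1 the counts were 4, with SLC2A1, and 1, LDHB.

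**Figure D2:**
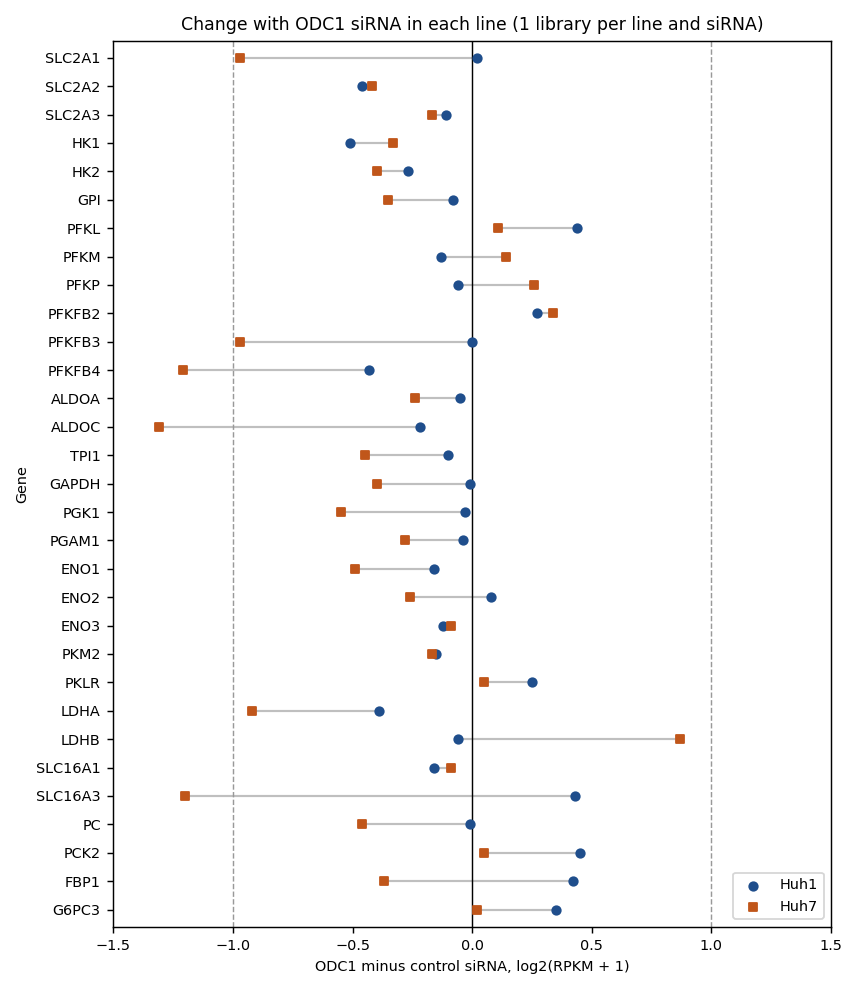
Change with ODC1 siRNA in Huh1 (blue circles) and Huh7 (orange squares) for the 31 genes above the minimum, as the difference in log2(RPKM + 1) between 1 library per siRNA. Dashed lines mark a 2-fold change. ALDOC, PFKFB4 and SLC16A3 in Huh7 lie past the left dashed line, and no gene lies past the right one.

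The start regions of genes picked by the following rule are shown. The rule took the 4 genes with the lowest mean change among those called or at least 2-fold lower in a line, which were PFKFB4, ALDOC, LDHA and HK1. PFKFB4 and ALDOC met it only by size in Huh7, and LDHA and HK1 only by the call. PFKFB3, SLC2A1 and SLC2A2 had lower mean changes than HK1 but met neither condition. The sequences are the 250 bases before each annotated start in the RefSeq promoter table for GRCh38.p14, read 5′ to 3′ on the gene's strand. PFKFB4 lies on the minus strand at chr3:48556804-48557053, ALDOC on the minus strand at chr17:28576896-28577145, and LDHA has starts on the plus strand with windows at chr11:18394313-18394562 and chr11:18396101-18396350. Capitals mark ACGTG or GCGTG on either strand, the core of the sites bound by hypoxia-inducible factors, and the first of these is also part of the E-box CACGTG.
PFKFB4: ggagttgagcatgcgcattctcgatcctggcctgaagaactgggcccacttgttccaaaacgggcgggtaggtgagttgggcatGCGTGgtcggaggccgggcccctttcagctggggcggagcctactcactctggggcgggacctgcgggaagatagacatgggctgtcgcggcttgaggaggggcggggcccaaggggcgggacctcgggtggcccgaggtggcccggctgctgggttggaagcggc
ALDOC: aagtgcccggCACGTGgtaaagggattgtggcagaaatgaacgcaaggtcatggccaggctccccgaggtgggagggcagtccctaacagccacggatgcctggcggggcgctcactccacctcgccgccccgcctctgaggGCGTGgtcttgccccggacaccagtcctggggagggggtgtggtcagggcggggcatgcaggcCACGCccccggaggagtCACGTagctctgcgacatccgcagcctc
LDHA, first start: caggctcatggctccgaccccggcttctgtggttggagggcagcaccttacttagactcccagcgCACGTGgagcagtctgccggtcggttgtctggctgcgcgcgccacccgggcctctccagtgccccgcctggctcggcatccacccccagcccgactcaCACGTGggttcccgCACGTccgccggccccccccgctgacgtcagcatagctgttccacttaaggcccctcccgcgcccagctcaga
LDHA, second start: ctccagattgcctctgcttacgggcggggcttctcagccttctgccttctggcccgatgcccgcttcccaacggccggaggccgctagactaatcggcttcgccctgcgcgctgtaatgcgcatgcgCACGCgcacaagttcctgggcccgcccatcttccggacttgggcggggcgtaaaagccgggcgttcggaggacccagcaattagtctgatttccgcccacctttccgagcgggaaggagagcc
The ALDOC window held ACGTG at 3 places and GCGTG at 2, with 1 E-box, which is read as ACGTG on both strands and so counts as 2 of the 3. The first LDHA window held ACGTG at 5 places, 4 of them within 2 E-boxes, and the second held GCGTG at 1 place, within a CACGCG. PFKFB4 held 1 GCGTG and no ACGTG. HK1 has 7 windows in the table, of which 1 held a GCGTG, and they are not printed. Of the 34 genes, 30 were in the table, with 62 windows. ACGTG stood in 22 of these windows (35.5%), against 18.5% of all 35116 windows of the same length, and GCGTG in 16 (25.8%), against 32.2%. CACGTG stood in 10 windows (16.1% against 6.34%) and CACGCG in 5 (8.06% against 9.72%). Several windows belong to 1 gene and some overlap, and a match is a stretch of letters, not a site shown to be bound.

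Glucose enters through the SLC2A transporters, and the 3 genes were arranged differently in the lines. SLC2A1, the widely expressed transporter GLUT1, stood at 16.9 and 17.2 RPKM in Huh1 (control, then ODC1 siRNA) and at 33.9 and 16.8 RPKM in Huh7. Only the Huh7 control library stood apart, at 2-fold the Huh1 control level, and Huh7 with ODC1 siRNA kept 49.5% of control (95% counting interval 45 to 54.3%, from approximate read numbers), while Huh1 was at 101% (91.6 to 112%). The mean change of -0.48 did not pass (SE 0.191, limma adjusted p = 0.226). SLC2A2, the low-affinity GLUT2 of hepatocytes, stood at 10.97 and 7.67 RPKM in Huh1, against 0.914 and 0.427 RPKM in Huh7. Both lines were lower with ODC1 siRNA, at 69.9% (60.2 to 81.5%) and 46.7% (23.1 to 88.2%) of control, and the mean change of -0.44 did not pass (limma adjusted p = 0.119). SLC2A3, the high-affinity GLUT3, was near the limit of detection in Huh1 at 0.174 and 0.0898 RPKM, and stood at 5.94 and 5.17 RPKM in Huh7. Its near-identical copy SLC2A14 was at 1.86 and 3.22 RPKM in Huh7, so reads may be split between them. The summed level of the 3 transporters was 88.8% of control in Huh1 and 54.9% in Huh7.

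Hexokinases trap glucose in the cell as glucose 6-phosphate. HK1, the widely expressed form, stood at 32.4 and 22.4 RPKM in the Huh1 pair and 44.5 and 35.2 RPKM in the Huh7 pair. Within each line the ODC1 library was the lower, and the levels left were 69.1% (63.6 to 75%) and 79.1% (73.7 to 84.9%) of control. HK1 fell by 0.42 on the log2 scale (SE 0.0839, limma adjusted p = 0.0452), with changes of -0.51 in Huh1 and -0.33 in Huh7. Over 8 other settings the adjusted p ran from 0.0224 to 1. HK2, the form typical of muscle and tumours, was at 2.16 and 1.61 RPKM in Huh1, and in Huh7 at 29.6 and 22.1 RPKM. It kept 74.6% (57.6 to 95.4%) and 74.8% (69.8 to 80.2%) of control, and the mean of -0.34 did not pass (SE 0.107, limma adjusted p = 0.145).

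Glucose phosphate isomerase and phosphofructokinase follow. GPI stood at 261 and 248 RPKM in Huh1, against 135 and 106 RPKM in Huh7, or 94.9% (89 to 101%) and 78.4% (71 to 86.6%) of control. The liver-type phosphofructokinase PFKL was higher with ODC1 siRNA in both lines, at 12.6 and 17.5 RPKM in the Huh1 pair and 32.8 and 35.6 RPKM in the Huh7 pair. Its mean of 0.28 did not pass (SE 0.1, limma adjusted p = 0.189), and the counting interval excluded the control level in Huh1 (138%, 123 to 157%) but not in Huh7 (108%, 99.7 to 118%). The muscle type PFKM was at 21.2 and 19.3 RPKM in Huh1, and in Huh7 at 15.8 and 17.6 RPKM, with no shared direction. The platelet type PFKP was at 68.3 and 65.7 RPKM in Huh1, against 0.586 and 0.903 RPKM in Huh7. Summed over the 3 types, phosphofructokinase stood at 100.3% of control in Huh1 and 109.8% in Huh7. GPI and aldolase, the steps before and after it, stood at 94.9% and 96.4% in Huh1 and at 78.4% and 79.8% in Huh7.

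The bifunctional PFKFB enzymes make and remove fructose 2,6-bisphosphate, the activator of phosphofructokinase. PFKFB3, whose kinase activity dominates, stood at 49.3 RPKM in both Huh1 libraries, and at 51.7 and 25.9 RPKM in Huh7. Levels in 3 of the 4 libraries were thus close together and the Huh7 ODC1 library was apart, at 50.1% of control (46.8 to 53.7%), against 99.9% in Huh1 (94.7 to 105%). With changes of -0.00 and -0.97, the mean of -0.49 did not pass (SE 0.183, limma adjusted p = 0.202). PFKFB4 was at 2.23 and 1.39 RPKM in the Huh1 pair and 22.2 and 9.06 RPKM in the Huh7 pair. Both ODC1 libraries were below their controls, at 62.3% (44.3 to 87%) and 40.8% (35.9 to 46.3%). Its mean of -0.82 was the largest of the 31 genes in size, with an SE of 0.175 and a limma adjusted p of 0.0545, just above the threshold, and it passed in 2 of 8 other settings. PFKFB2, the heart form, was higher with ODC1 siRNA in both lines, at 7.63 and 9.44 RPKM in Huh1, and in Huh7 at 3.37 and 4.52 RPKM, or 124% (112 to 137%) and 134% (114 to 158%) of control. The mean of 0.31 for PFKFB2 did not pass (SE 0.113, limma adjusted p = 0.194). PFKFB1, the liver form, was at 0 in 3 libraries and at 0.0565 RPKM in Huh7 with ODC1 siRNA.

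Aldolase splits the hexose into 2 trioses. ALDOA, the main form, stood at 397 and 384 RPKM in Huh1, against 450 and 380 RPKM in Huh7, or 96.9% and 84.5% of control. ALDOC, the brain form, stood at 16.2 and 13.7 RPKM in the Huh1 pair and 51.9 and 20.3 RPKM in the Huh7 pair. The Huh7 control library was again alone at the top, and ALDOC kept 84.7% (72.9 to 98.4%) of control in Huh1 and 39.2% (34.9 to 43.8%) in Huh7. The mean of -0.77 did not pass (SE 0.205, limma adjusted p = 0.0981), and it passed in 1 of 8 other settings. ALDOC made up 3.92% and 3.44% of aldolase RPKM in Huh1, and 10.3% and 5.07% in Huh7.

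The enzymes that handle the trioses were among the most abundant transcripts of the libraries. TPI1, which interconverts the trioses, stood at 642 and 598 RPKM in Huh1, and in Huh7 at 894 and 655 RPKM, or 93.1% (90.4 to 95.8%) and 73.2% (71.2 to 75.3%) of control. GAPDH, the dehydrogenase often used as a reference gene, stood at 3733 and 3708 RPKM in Huh1, against 3805 and 2879 RPKM in Huh7. It ranked 5 in both Huh1 libraries, 1 in the Huh7 control and 3 in Huh7 with ODC1 siRNA. The other 3 libraries were close together, and Huh7 with ODC1 siRNA was at 75.7% of control (74.9 to 76.5%), against 99.4% in Huh1 (98.4 to 100.3%). PGK1, which makes the first ATP of the pathway, was at 375 and 368 RPKM in the Huh1 pair and 362 and 247 RPKM in the Huh7 pair. As for GAPDH, only the Huh7 ODC1 library stood apart, at 68.1% of control (66.6 to 69.6%). PGAM1, the mutase, was at 347 and 338 RPKM in Huh1, and in Huh7 at 485 and 399 RPKM, or 97.4% and 82.3% of control. None of these 4 passed, with limma adjusted p-values of 0.114 for TPI1, 0.225 for GAPDH, 0.194 for PGK1 and 0.258 for PGAM1.

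Enolase and pyruvate kinase complete the route to pyruvate. ENO1, the main enolase, stood at 1403 and 1255 RPKM in Huh1, against 1710 and 1215 RPKM in Huh7. Both ODC1 libraries were below their controls, at 89.4% (88.2 to 90.7%) and 71% (70 to 72.1%), and the mean of -0.33 did not pass (SE 0.0757, limma adjusted p = 0.0682). The neuronal form ENO2 was at 0.91 and 1.01 RPKM in the Huh1 pair and 17.4 and 14.4 RPKM in the Huh7 pair, and the muscle form ENO3 at 3.2 and 2.85 RPKM in Huh1, and in Huh7 at 13.2 and 12.3 RPKM. Neither passed, and ENO1 held at least 97.9% of enolase RPKM in every library. PKM2 stood at 916 and 826 RPKM in Huh1, against 1060 and 940 RPKM in Huh7. The levels left, 90.1% (88.5 to 91.7%) and 88.7% (87.1 to 90.2%), were nearly the same in both lines, and the mean of -0.16 did not pass (SE 0.0512, limma adjusted p = 0.145). PKLR, the pyruvate kinase of liver and red cells, was at 2.84 and 3.57 RPKM in the Huh1 pair and 0.341 and 0.386 RPKM in the Huh7 pair. The files list 1 transcript for PKM2, so the splice forms M1 and M2 of the muscle-type gene cannot be separated.

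The 9 genes above 100 RPKM in every library were GPI, ALDOA, TPI1, GAPDH, PGK1, PGAM1, ENO1, PKM2 and LDHA. Each of the 9 was lower with ODC1 siRNA in both lines and had the lower change in Huh7, beside 30% and 53.3% of all genes tested. Their medians were -0.08 in Huh1 and -0.40 in Huh7. In Huh1 the counting interval included the control level for GPI, ALDOA, GAPDH, PGK1 and PGAM1. At these levels the counting intervals are narrow, but they cover counting error only and not the spread between cultures. Several of these genes have processed pseudogenes, so how the authors assigned reads that match more than one place is part of each value. The counting interval of the percent of control lay below 100% for 11 of 33 genes of the pathway in Huh1 and above it for 5, beside 10.5% and 14.9% of all transcripts with an interval. In Huh7 it lay below for 19 of 34 and above for 2, beside 17.7% and 17.9%. Intervals narrow with read number, and the abundant genes of the pathway have more reads than most, so these shares are not matched for depth. For GPI, PFKM, PFKP, SLC2A3, ALDOA, ENO2, ENO3, PKLR and SLC16A1 the limma adjusted p of the mean change lay between 0.186 and 0.983.

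**Figure D3:**
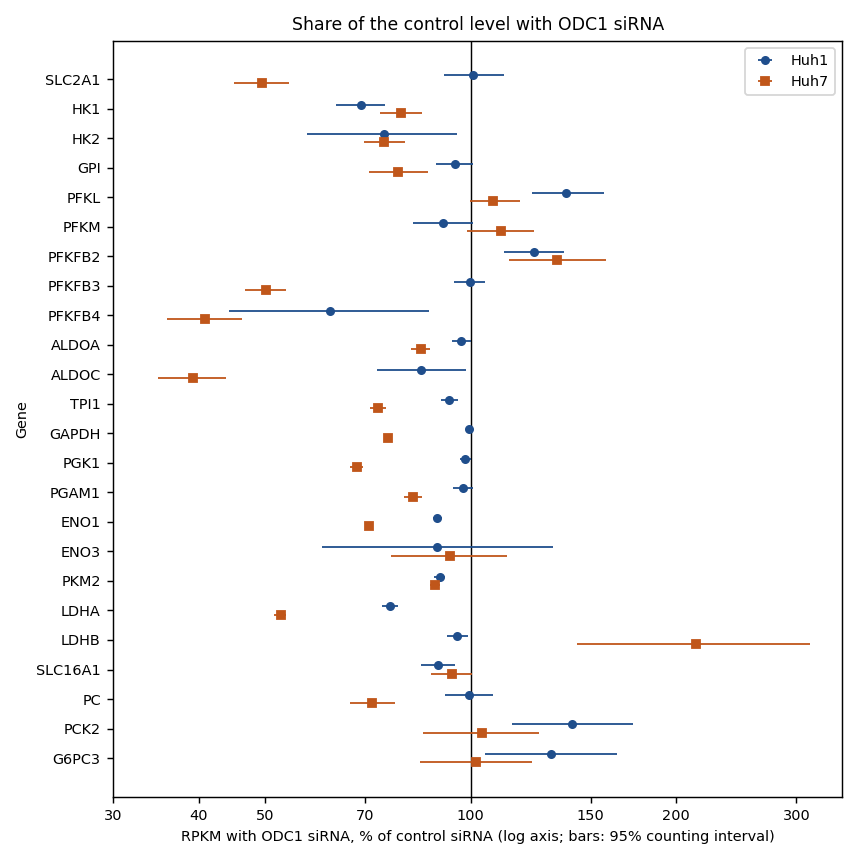
RPKM with ODC1 siRNA as a percent of control siRNA, on a log axis, for the 24 genes above 1 RPKM in every library. Circles are Huh1, squares Huh7, and bars are 95% counting intervals. The squares lie mostly left of the circles, and LDHB in Huh7 is the exception far to the right.

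Lactate dehydrogenase regenerates the NAD that GAPDH consumes, and LDHA had the lowest mean change of the 9 abundant genes. LDHA, whose tetramer favours making lactate, stood at 547 and 417 RPKM in Huh1, and in Huh7 at 1396 and 735 RPKM. Each ODC1 library was below its own control, at 76.3% (74.3 to 78.4%) and 52.7% (51.6 to 53.7%), and both Huh7 libraries were above both Huh1 libraries. LDHA fell by 0.66 on the log2 scale (SE 0.106, limma adjusted p = 0.0265), with a range of adjusted p from 0.00639 to 1 over 8 other settings. LDHB, whose tetramer favours pyruvate, was at 403 and 385 RPKM in Huh1, against 2.68 and 5.72 RPKM in Huh7. In Huh7 this rests on about 43 and 76 reads, and 5.72 RPKM was 214% of control (143 to 314%), while Huh1 was at 95.7% (92.4 to 99.1%). The changes of -0.06 and 0.87 gave a mean of 0.40 that did not pass (SE 0.177, limma adjusted p = 0.265). The sum of both genes was 84.5% of control in Huh1 and 53% in Huh7.

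Lactate leaves through monocarboxylate transporters. SLC16A1, the widely expressed MCT1, stood at 53.6 and 48.01 RPKM in the Huh1 pair and 40.5 and 37.95 RPKM in the Huh7 pair, or 89.5% (84.6 to 94.8%) and 93.8% (87.6 to 100.4%) of control. SLC16A3, the exporter MCT4 of strongly glycolytic cells, was at 0.0366 and 0.392 RPKM in Huh1, and in Huh7 at 67.6 and 28.7 RPKM. The Huh1 values stand for about 0.98 and 8.8 reads, so the gene was near the limit of detection there, whereas Huh7 with ODC1 siRNA kept 42.5% of control (38.7 to 46.8%). Its changes of 0.43 and -1.20 gave a mean of -0.39 that did not pass (SE 0.302, limma adjusted p = 0.528), and the sign of that mean turned to 0.31 with a pseudocount of 0.1. SLC16A3 made up 62.5% of the RPKM of both transporters in the Huh7 control and 43.1% with ODC1 siRNA. The difference between the transporters in Huh7 was not tested.

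Of the gluconeogenic genes, PC, which carboxylates pyruvate in mitochondria, stood at 24.3 and 24.1 RPKM in Huh1, against 37.2 and 26.7 RPKM in Huh7. The Huh7 control library alone was high for PC, and the level left was 71.8% of control (66.5 to 77.4%) against 99.5% in Huh1 (91.7 to 108%). PCK2, the mitochondrial phosphoenolpyruvate carboxykinase, was at 7.32 and 10.3 RPKM in the Huh1 pair and 10.1 and 10.5 RPKM in the Huh7 pair, or 141% (115 to 173%) and 104% (85.1 to 126%) of control. G6PC3, the widely expressed glucose 6-phosphatase, was at 7.76 and 10.2 RPKM in Huh1, and in Huh7 at 13.3 and 13.5 RPKM, or 131% (105 to 164%) and 102% (84.2 to 123%). FBP1, the fructose bisphosphatase of liver, was low everywhere, at 0.799 and 1.4 RPKM in Huh1, against 0.773 and 0.369 RPKM in Huh7. None of these 4 passed, with limma adjusted p-values of 0.304 for PC, 0.317 for PCK2, 0.414 for G6PC3 and 0.972 for FBP1. The hepatocyte enzymes that release glucose into blood were nearly absent. PCK1, the cytosolic carboxykinase, did not exceed 0.068 RPKM, and G6PC, the glucose 6-phosphatase of liver, reached 0.635 and 0.684 RPKM in Huh1 but no more than 0.0311 RPKM in Huh7.

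The lines differed in the make-up of several steps. In the same limma fit, 15 of the 31 genes were higher in Huh7 at an adjusted p of 0.05, beside 43.1% of all genes tested, and 9 were lower, beside 30.8%. These counts are near the background for any gene, since the lines differ throughout the transcriptome. The other 7 genes were not called. The median difference over all genes was 0.13, and quantile normalization moved it to 0.01, after which ALDOA, ENO1 and GAPDH were also called higher, FBP1 and PFKFB3 were also called lower, PC was no longer called higher and PGK1 no longer lower. Upper quartile scaling called GAPDH lower, opposite to quantile normalization, and PFKFB3 lower, and no longer called PKM2. The 5 genes with the largest differences were LDHB, PFKP, SLC16A3, HK2 and ENO2.

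**Figure D4:**
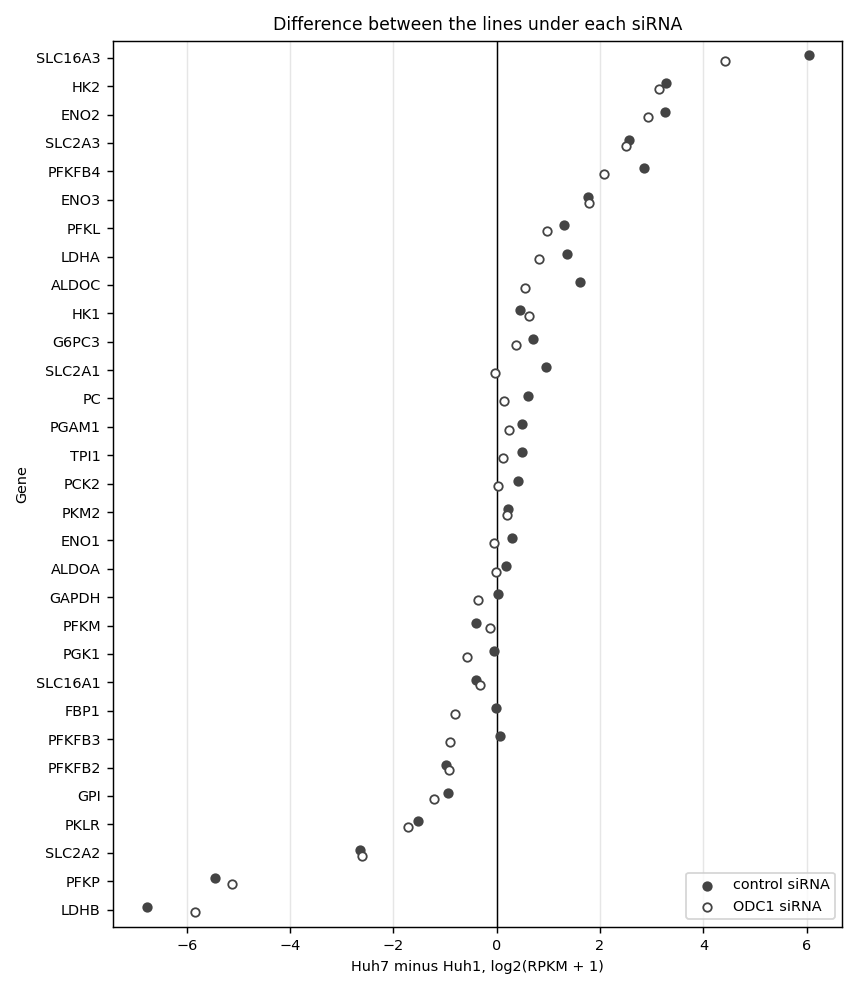
Difference between the lines, Huh7 minus Huh1 in log2(RPKM + 1), for the 31 genes above the minimum, with control siRNA (filled) and ODC1 siRNA (open), 1 library per point. SLC16A3, HK2 and ENO2 are at the top, higher in Huh7, and LDHB and PFKP at the bottom, higher in Huh1, under both siRNAs.

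LDHB showed the largest difference of the 31 genes. In the Huh1 control it was 150.4-fold the level in the Huh7 control (counting interval 110.4 to 206), and 67.3-fold with ODC1 siRNA (53.8 to 85.8), with a line difference of -6.31 (limma adjusted p = 1.25e-08). LDHA was 2.55-fold higher in Huh7 with control (2.5 to 2.61) and 1.76-fold with ODC1 siRNA (line difference 1.08, limma adjusted p = 2.25e-05). LDHA therefore held 57.6% and 52% of lactate dehydrogenase RPKM in Huh1, and 99.8% and 99.2% in Huh7. For phosphofructokinase, PFKP was 117-fold higher in Huh1 with control (74.4 to 194) and 72.8-fold with ODC1 siRNA (49.8 to 116; line difference -5.29, limma adjusted p = 2.91e-09). PFKL was higher in Huh7 (1.15, limma adjusted p = 1.15e-05), so the main type was PFKP in Huh1, with 66.9% and 64.1% of the RPKM, and PFKL in Huh7, with 66.7% and 65.8%. In both steps the order of the isozymes within a line was the same under both siRNAs.

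Among transporters, SLC16A3 was far higher in Huh7 (line difference 5.23, limma adjusted p = 8.78e-07). With about 1 read in the Huh1 control, the fold there was 1848 with a counting interval from 325 to 71558, and with ODC1 siRNA it was 73.3-fold. SLC2A3 was also higher in Huh7 (2.53, limma adjusted p = 9.26e-07), at 34.1-fold with control (18 to 76.5), whereas SLC2A2 was 12-fold higher in Huh1 (8.49 to 17.2; line difference -2.62, limma adjusted p = 3.59e-07). SLC2A2 held 39.1% and 30.8% of SLC2A RPKM in Huh1 and no more than 2.24% in Huh7. HK2 was 13.7-fold higher in Huh7 with control (11.7 to 16.1) and 13.8-fold with ODC1 siRNA (line difference 3.21, limma adjusted p = 3.29e-08). It held 6.23% of the RPKM of HK1 and HK2 in the Huh1 control against 40% in the Huh7 control. HKDC1, a hexokinase gene outside the 34, stood at 62.5 and 60.5 RPKM in Huh1, against 1.00 and 0.902 RPKM in Huh7. HKDC1 was thus above HK1 and HK2 in Huh1, and these shares leave it out. Of the fructose 2,6-bisphosphate enzymes, PFKFB4 was higher in Huh7 (2.46, limma adjusted p = 3.09e-06) and PFKFB2 lower (-0.95, limma adjusted p = 7.61e-05). ENO2 and ENO3 were higher in Huh7 (3.10 and 1.77, limma adjusted p = 1.36e-07 and 1.38e-06), and PKLR was lower (-1.62, limma adjusted p = 2.15e-05). Smaller differences that passed were higher levels in Huh7 of ALDOC (1.08), HK1 (0.54), G6PC3 (0.54) and PC (0.37), and lower levels of SLC16A1 (-0.36) and PFKM (-0.26). Their limma adjusted p-values were 0.00134, 4.22e-04, 0.00217, 0.0158, 0.002 and 0.0382 in that order.

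Among the most abundant enzymes the differences between the lines were smaller. GPI was lower in Huh7 (-1.09, limma adjusted p = 2.9e-06), at 1.94-fold more in the Huh1 control. TPI1, PGAM1 and PKM2 were higher in Huh7 by 0.30, 0.36 and 0.20 (limma adjusted p = 0.00758, 0.00139 and 0.0071). PGK1 was lower in Huh7 by this fit (-0.31, limma adjusted p = 0.026), but the difference was -0.05 with control and -0.58 with ODC1 siRNA. For TPI1 it was 0.48 with control and 0.13 with ODC1 siRNA. ALDOA, GAPDH and ENO1 were not called, at 0.08, -0.17 and 0.12 (limma adjusted p = 0.273, 0.0928 and 0.182). SLC2A1 and PFKFB3, whose lower levels with ODC1 siRNA were in Huh7, were also not called (0.47 and -0.42, limma adjusted p = 0.0532 and 0.0651). SLC2A1 was 2-fold higher in Huh7 only with control siRNA, and was level with Huh1 with ODC1 siRNA (0.977-fold). Of the 11 markers of hepatocytes and hepatocellular carcinoma, 7 were called lower in Huh7 and 4 higher (AFP, TTR, GPC3 and FGB). All 4 fibroblast markers tested were called higher. Over all genes tested, 30.8% were called lower and 43.1% higher. The part of these markers in the line differences was not tested.

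**Figure D5:**
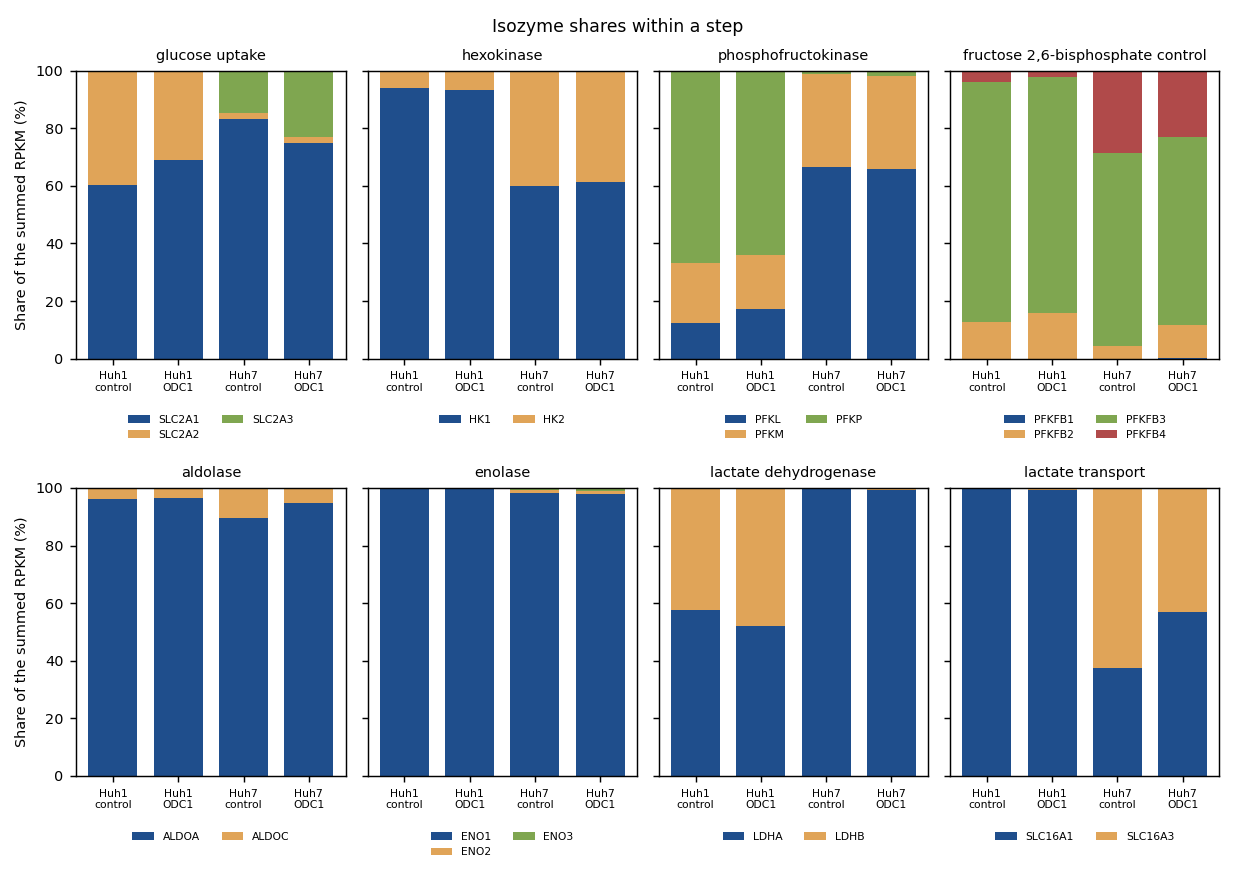
Share of the summed RPKM of each step taken by each isozyme, in percent, per library. PFKP and LDHB fill much of the bar in Huh1 and little of it in Huh7, and SLC16A3 and PFKFB4 are visible mainly in Huh7.

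Other genes of glucose metabolism gave a background for the siRNA comparison. Over all 12039 genes tested, 74 (0.615%) were called lower and 181 higher. Of 19 tested isozymes and transporters outside the 34 genes, 1 fell and none rose, with medians of -0.01 in Huh1 and -0.06 in Huh7. The one that fell was SLC16A7, the monocarboxylate transporter MCT2, at 20.3 and 15.2 RPKM in the Huh1 pair and 11.4 and 6.52 RPKM in the Huh7 pair (mean -0.56, limma adjusted p = 0.044). The transporter gene SLC2A6 had a mean of -0.32 and did not pass (limma adjusted p = 0.207). The pentose phosphate pathway, which branches off at glucose 6-phosphate, had none of 8 tested genes called and medians of 0.01 and -0.09. Glycogen metabolism had none of 17 called, with medians of 0.01 and -0.13, although PGM1, which links glycogen to glucose 6-phosphate, was at 42.3 and 41.8 RPKM in Huh1, and in Huh7 at 40.9 and 21.2 RPKM. PYGL, the liver glycogen phosphorylase, had a mean of -0.36 and PHKB, a subunit of its kinase, one of 0.31, and neither passed (limma adjusted p = 0.117 and 0.134). Of 16 genes linking fructose, glycerol and malate to glycolysis, 1 rose, the malic enzyme gene ME1, at 101 and 131 RPKM in Huh1, against 22.4 and 31.5 RPKM in Huh7 (mean 0.42, limma adjusted p = 0.0327). The median of the 31 genes in Huh7, -0.33, was below that of each of these lists, and the difference between lists was not tested.

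Of 27 tested regulators of glycolysis and gluconeogenesis, 2 fell and none rose, beside 74 and 181 of all 12039 genes tested. HIF1A, which encodes the oxygen-sensitive subunit of a factor that induces glycolytic genes, stood at 31.3 and 25.2 RPKM in the Huh1 pair and 147 and 110 RPKM in the Huh7 pair, and fell by 0.35 (limma adjusted p = 0.0494). PRKAA1, a catalytic subunit of the AMP-activated kinase, stood at 31.1 and 22.7 RPKM in Huh1, and in Huh7 at 32.1 and 20.2 RPKM, and fell by 0.54 (limma adjusted p = 0.0267). EGLN3, a hydroxylase that marks HIF for destruction, was at 8.13 and 6.33 RPKM in Huh1, against 5.65 and 3.42 RPKM in Huh7, and did not pass (mean -0.45, limma adjusted p = 0.101). CEBPA, a liver transcription factor, was at 94.4 and 78.4 RPKM in the Huh1 pair and 68.9 and 43.3 RPKM in the Huh7 pair, and did not pass (mean -0.46, limma adjusted p = 0.0517). The markers of hepatocytes and hepatocellular carcinoma had medians of -0.06 in Huh1 and -0.34 in Huh7, close to those of the glycolytic genes. Among them ALB was lower (limma adjusted p = 0.0232) and TTR higher (limma adjusted p = 0.0494). The fibroblast marker LUM rose as well (limma adjusted p = 0.0403), and the part of these markers in the siRNA result was not tested. No gene at all was called for ODC1 siRNA with no filter on level, without the mean-variance trend of the fit, or without the line term. The calls of SLC16A7, ME1, HIF1A, PRKAA1, ALB, TTR and LUM were therefore lost in those settings.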

How the data were processed

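Total RNA from Huh1 and Huh7 cells was sequenced from Illumina TruSeq libraries, per the labels' protocols. The submitters' processing notes name CASAVA 1.8.2, TopHat2 2.0.9 and hg19. Which program counted the reads, with which annotation release and strand setting, is not given in the sources used here. The deposited values are RPKM per RefSeq transcript, computed by the authors, on 18398 rows with 18382 different symbols. Each of the 34 genes had 1 row, so isoforms were not separated. Groups are the 4 combinations of line and siRNA, with 1 library each.

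Values were analysed as log2(RPKM + 1). A model with siRNA and line as factors and a mean-variance trend was fitted with limma 3.58.1 (R 4.3.3) to 12039 genes, those that reached 1 RPKM in some library. It had 1 residual degree of freedom, which is how far the siRNA change of one line lies from that of the other, and 7.42 prior degrees of freedom. P-values were adjusted after Benjamini and Hochberg over all these genes, with a threshold of 0.05. Within a line, a 2-fold rule of size was used without a test. The fit was tested on simulated data, in which unchanged genes made up more of the calls than the threshold allows. The changed genes of the simulation changed alike in both lines, so changes that differ between the lines, as for LDHB, were not covered.

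Reads per gene were approximated from RPKM, GENCODE lengths and the recovered depth, and some low values stood at 1/2 or 1/3 of 1 read. Counting intervals are exact Clopper-Pearson intervals at 95% and cover counting error only. The 34 genes and the other lists were chosen with earlier results of these data known. All 34 are described. Of the other lists, the 3 genes with the largest mean change and those called are named, and PGD was added after its values were seen. DAK, HKDC1 and SLC2A8 are also named outside this rule. A few genes of these lists are not reported here. Alternatives were other scalings, pseudocounts, filters, folds, variance models, terms and left-out libraries.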

Additional observations from a re-analysis of the deposited data

Results flagged for a closer look

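LDHB and SLC16A3 moved in opposite directions in the lines, with counting intervals that lay on opposite sides of the control level. For LDHB the change on the log2(RPKM + 1) scale was -0.06 in Huh1, at 95.7% of control (92.4 to 99.1%), and 0.87 in Huh7, at 214% (143 to 314%), so that Huh7 minus Huh1 was 0.93. For SLC16A3 the change was 0.43 in Huh1, from about 0.98 to 8.8 reads, and -1.20 in Huh7, at 42.5% of control, so that Huh7 minus Huh1 was -1.63. In each case the line in which the gene was scarce was the one where it was higher with ODC1 siRNA. No test of this difference was made for either gene, since each rests on 1 library per combination of line and siRNA.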

How the results depend on the processing

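The count of 2 genes lower over both lines became 5 with upper quartile scaling (HK1, LDHA, ENO1, PFKFB4 and ALDOC), 3 with the trend on counting variance (HK1, LDHA and PFKFB4), and 0 with quantile normalization, with a pseudocount of 0.1, with no filter, with a filter at 5 RPKM, without the trend and without the line term. Over all genes the 74 lower and 181 higher became 25 and 64 with quantile normalization, 11 and 43 with the pseudocount of 0.1, 27 and 81 with the filter at 5 RPKM, and 196 and 268 with upper quartile scaling. With no filter, without the trend and without the line term both were 0. With no filter and without the trend, 1725 and 1830 genes were at an unadjusted p of 0.05. The count of 15 genes higher in Huh7 than in Huh1 became 7 with no filter. In Huh7, the 3 genes at least 2-fold lower became 4 with the pseudocount of 0.1 (adding SLC2A1), 5 with quantile normalization (adding LDHA and GAPDH) and 6 with a 1.5-fold rule (adding LDHA, PFKFB3 and SLC2A1), and the count of 0 at least 2-fold higher became 1, LDHB, with the pseudocount of 0.1 and with the 1.5-fold rule. The median change over both lines, -0.16, ran from -0.33 without a Huh1 library to -0.06 without a Huh7 library, which leaves the comparison within the other line and no residual degree of freedom for a test. The mean change turned for PFKM to -0.01 with upper quartile scaling, and with the pseudocount of 0.1 for SLC16A3 to 0.31 and for FBP1 to -0.08. Of the values of single genes, 227 kept direction and side of the threshold, 12 lost the call, 4 gained one and 3 turned. The cause was not tested. The line term pairs the libraries of a line, so the fit without it is the unpaired one. Depth limits the genes with under 50 reads in a library of the line, which were G6PC, FBP1, ENO2, ENO3, PCK1, PFKFB1, SLC16A3 and SLC2A3 in Huh1, and G6PC, PKLR, SLC2A2, FBP1, LDHB, PCK1, PFKFB1 and PFKP in Huh7.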

Other observations

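Genes of the pentose phosphate pathway, a branch that makes NADPH and ribose, were mostly lower in Huh7 than in Huh1. PGD, a dehydrogenase of the pathway, was at 989 and 886 RPKM in Huh1 (control, then ODC1 siRNA), against 155 and 143 RPKM in Huh7 (-2.65, limma adjusted p = 2.7e-09). TKT and TALDO1, which return sugars to glycolysis, were also lower in Huh7 (-2.27 and -2.41, limma adjusted p = 8.81e-09 and 7.41e-09). RPIA, the isomerase of the same route, was higher in Huh7 (0.46, limma adjusted p = 0.00243), and of the 8 genes tested 5 were lower and 2 higher, beside 30.8% and 43.1% of all genes. PGD did not pass for ODC1 siRNA (limma adjusted p = 0.231).

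Of 16 genes linking fructose, glycerol and malate to glycolysis, 10 were called lower in Huh7 and 6 higher, beside 30.8% and 43.1% of all genes. KHK, which phosphorylates fructose, stood at 14.7 and 14.4 RPKM in the Huh1 pair and 4.24 and 1.99 RPKM in the Huh7 pair (-1.97, limma adjusted p = 1.13e-05). SORD, which makes fructose from sorbitol, was at 64.3 and 55.3 RPKM in Huh1, and in Huh7 at 27.8 and 19.8 RPKM (-1.31, limma adjusted p = 2.19e-06). DAK, a triose kinase of the fructose route, was higher in Huh7 (0.61, limma adjusted p = 0.00127). Neither KHK nor SORD passed for ODC1 siRNA (limma adjusted p = 0.235 for KHK and 0.087 for SORD).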
